A study of Homo sapiens with 60 samples.

Results

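Genes that make, rebuild and use glutathione were followed in HepG2 cells, an established human hepatocellular carcinoma line, by messenger RNA sequencing after 24 h with herbal extracts. The genes were picked by name from the count table: SLC7A11, GCLC, GCLM, GSS, GSR, GGT1, GPX1, GPX2 and GPX4, which are 9 of 60675 genes. All 9 passed the filter on low counts and stood among the 16286 genes tested. The labels give 57 libraries of treated cells and 3 of vehicle. Treated cells received 1 of 8 extracts at 20 µg/mL (Low), 100 µg/mL (Medium) or 500 µg/mL (High). The herbal formulas Sibjeondaebo-tang, SDT for short, and Palmul-tang, PMT for short, were given as water extracts, and the other 6 were 70% ethanol extracts of the single herbs Poria Cocos, Atractylodis, Glycyrrhiza, Ginseng, Angelica and Paeonia. PMT had 2 libraries per dose, Angelica and Paeonia had 1, and the remaining extracts had 3. Vehicle is 0.1% DMSO in the sample labels and 2% DMSO in the series text, and the labels give no DMSO content for treated cultures. The series text also names a 10 µM wortmannin control, which was not analysed here. Every library comes from a single tumour line in culture.

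Glutathione is a tripeptide of glutamate, cysteine and glycine and is the main small thiol of the cell, held at high levels in hepatocytes. Its supply is usually limited by cysteine, which SLC7A11 brings in as cystine in exchange for glutamate, and by glutamate-cysteine ligase, whose catalytic and modifier subunits are encoded by GCLC and GCLM. GSS adds the glycine, GSR reduces oxidised glutathione back with NADPH, and GGT1 at the cell surface splits glutathione outside the cell. The peroxidases GPX1, GPX2 and GPX4 spend glutathione on peroxides: GPX1 is the widespread cytosolic enzyme, GPX2 is the epithelial one, and GPX4 acts on lipid peroxides in membranes. All 3 are selenoproteins. NRF2, the transcription factor of the antioxidant response, is a known activator of SLC7A11, GCLC, GCLM, GSR and GPX2, and ATF4, the transcription factor of the amino acid and endoplasmic reticulum stress response, is a known activator of SLC7A11.

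Libraries held 19057280 to 33233253 counts. Hepatocyte markers summed to between 43260 and 68400 CPM (counts scaled to a fixed library total) in every library, and the leukocyte marker PTPRC was at 0 in all 60, whereas the 4 leukocyte markers together summed to 967 to 2176 CPM, through LYZ and CD68. Fibroblast and stellate markers summed to 2.44 to 17.8 CPM and endothelial markers to 1.66 to 3.23 CPM. Mitochondrially encoded genes took 14.7% to 24.8% of counts in treated libraries and 13.4% to 15.2% in vehicle. That share was also higher in Poria High (19.7% to 22.3%) than in Poria Low (15.8% to 17.5%), and in Glycyrrhiza High (17.8% to 18.4%) than in Glycyrrhiza Low (15.1% to 17.0%). Taking the mitochondrial genes out of the library sizes changed no call of any of the 9 genes. Vehicle carries a set code in its sample description that no extract shares, so in a comparison with vehicle the set and the treatment cannot be told apart. High against Low within an extract stays inside a set code and is the main comparison here. The labels do not say whether replicates were separate cultures, so p-values may measure technical spread only, and in bulk RNA fewer cells of a kind and less RNA per cell cannot be told apart.

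Levels per gene length set the scale. In vehicle, CPM per kilobase of exon was highest for GPX2 (269), followed by GPX4 (121), GPX1 (108), GSR (37.1), GSS (10.5), GGT1 (9.33), GCLC (8.30), GCLM (5.36) and SLC7A11 (2.91). No neighbours in that order overlapped between the 3 libraries. The length used is that of all annotated exons of a gene merged, which can exceed the length of the messenger RNA present. The order between genes is therefore approximate, however close the libraries. In Glycyrrhiza High the order changed in its lower part: SLC7A11 stood at 26.1 CPM per kilobase, GCLM at 24.4 and GCLC at 22.4, with overlapping libraries between neighbours, all above GSS (9.58) and GGT1 (7.88). In Poria High the order was GCLC (19.6), GCLM (15.6), SLC7A11 (8.62), GGT1 (8.50) and GSS (7.81) below GSR, and SLC7A11 overlapped GGT1.

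Stretches of 2 promoters are printed because they carry the same short motif next to GCLM and GPX2, genes that part ways in Glycyrrhiza High. In every other replicated extract both genes rose at High against Low. The motif searched was the core of the antioxidant response element, TGACNNNGC, on both strands of the 300 bases from 250 before to 50 after the transcription start (RefSeq, GRCh38.p14), where 6 of the 9 genes had a window: GCLC, GCLM, GGT1, GPX1, GPX2 and GPX4. Of 35116 promoter windows, 13.35% hold it. GCLM holds it 34 to 26 bases before its start as TGACTAAGC, and GPX2 holds it 122 to 114 bases before its start as TGACTTAGC, both on the strand opposite to the gene. The stretches, the motif with 10 bases on either side, run along the gene's own strand, which is the minus strand for both, so the capitals show the motif in reverse complement.
GCLM, chr1:93909446-93909474: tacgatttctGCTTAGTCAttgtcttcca
GPX2, chr14:64942849-64942877: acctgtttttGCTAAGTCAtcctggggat
The match is a description of letters and shows no binding. A window of GGT1 at chromosome 22 also holds the motif as TGACCCAGC, and none of the windows of GCLC, GPX1 and GPX4 does. The C/EBP-ATF response element TGATGNAA, on either strand, is in 3.62% of all windows and in none of these 6 genes' windows.

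SLC7A11, the cystine importer (chr4:138164097-138242349, GRCh38, minus strand), had the widest range of the 9 genes. It had 258, 266 and 232 CPM in Glycyrrhiza High, against 42.2, 42.8 and 42.1 CPM in Glycyrrhiza Low and 29.9, 26.1 and 28.3 CPM in vehicle. Every Glycyrrhiza High library lay far above every library of the other groups, and the log2 fold change of High against Low was 2.57 (SE 0.07, edgeR quasi-likelihood test with Benjamini-Hochberg adjustment, adjusted p = 3.4e-31). Poria High had 78.4, 75.5 and 95.5 CPM, against 33.0, 38.9 and 31.1 CPM in Poria Low, a log2 fold change of 1.28 (SE 0.07, adjusted p = 1.1e-18). The gene also rose by less in Atractylodis (0.52), Ginseng (0.37) and SDT (0.31). In PMT the log2 fold change was 0.29 with an adjusted p of 0.22 by the same test, and it was called only with no filter on low counts (0.30). The dose steps differed in size between the extracts: with Glycyrrhiza the mean was 42.4 CPM at Low, 57.3 at Medium and 252 at High, whereas with Poria it was 34.3, 62.0 and 83.1 CPM. SLC7A11-AS1 overlaps it on the other strand at 0.186 to 2.71 CPM. The strand setting of the counting is not stated, and the expected counts of SLC7A11 were whole, within 0.005, in all 60 libraries.

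GCLC and GCLM, the subunits of glutamate-cysteine ligase, rose together with dose. GCLM (chr1:93885205-93909456, minus strand) had 133, 143 and 121 CPM in Glycyrrhiza High, against 33.9, 33.6 and 34.0 CPM in Glycyrrhiza Low, a log2 fold change of 1.97 (SE 0.06, edgeR adjusted p = 1.74e-29). In Poria High it had 91.1, 78.7 and 83.9 CPM, against 32.8, 35.2 and 32.1 CPM in Poria Low, a log2 fold change of 1.34 (SE 0.06, adjusted p = 7.75e-22). The modifier subunit passed the test in all 6 extracts with replicates, with log2 fold changes of 0.68 in Atractylodis, 0.59 in Ginseng, 0.46 in PMT and 0.44 in SDT. GCLC (chr6:53497341-53616970, minus strand) had 190, 205 and 186 CPM in Glycyrrhiza High, against 74.3, 73.7 and 72.1 CPM in Glycyrrhiza Low (log2 fold change 1.40, SE 0.04, adjusted p = 7.4e-31). Poria High had 169, 168 and 171 CPM of it, against 73.5, 76.3 and 68.3 CPM in Poria Low (log2 fold change 1.22, SE 0.04, adjusted p = 2.9e-27). High and Low libraries did not overlap for either subunit in either herb. The log2 fold change was larger for GCLM than for GCLC in all 6 extracts, a difference between genes that was not tested. In the weaker extracts GCLC rose by 0.39 on the log2 scale in Atractylodis, 0.36 in Ginseng and 0.15 in SDT. The PMT value of 0.18 had an adjusted p of 0.096 by edgeR. GCLC overlaps AL033397.1 on its own strand, and its expected counts were not whole in 9 of 60 libraries.

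**Figure D1:**
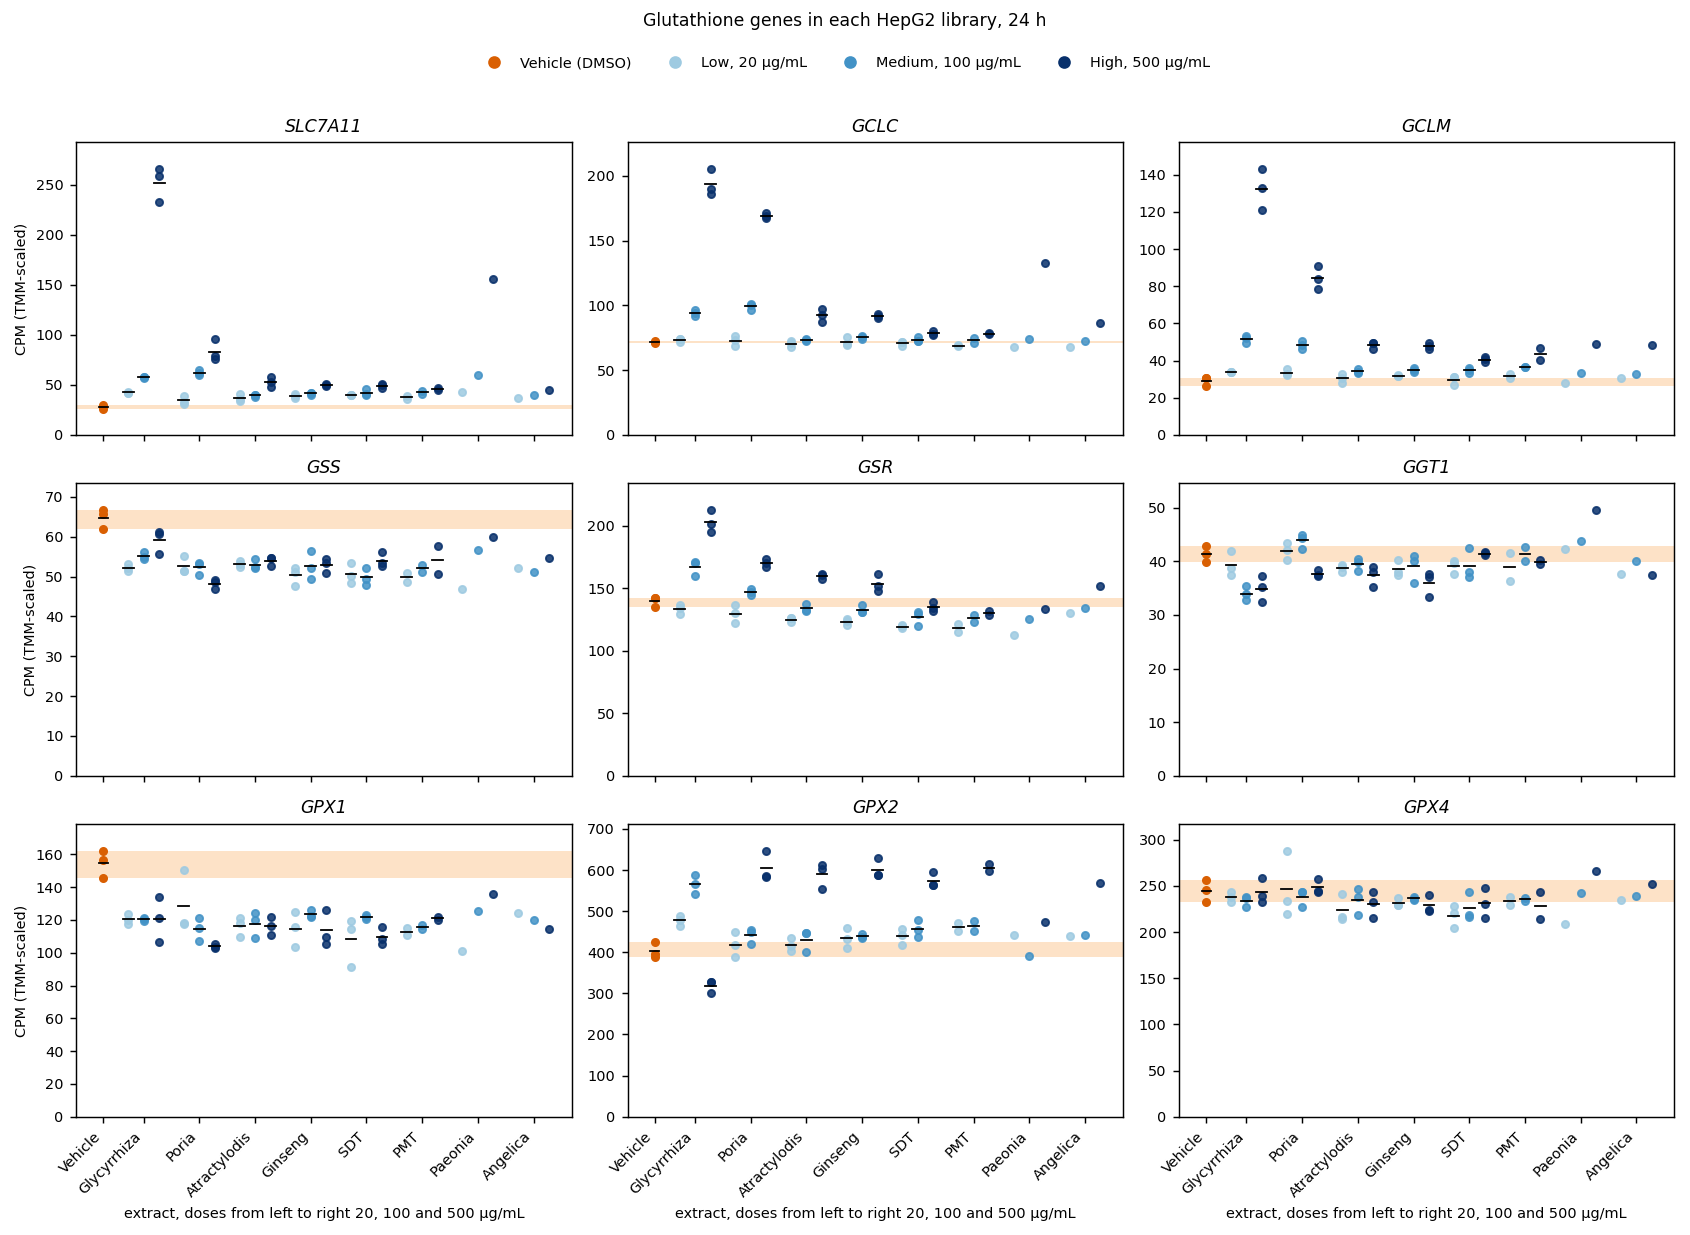
Level of each of the 9 genes in every library, in CPM on TMM-scaled library sizes from 0 (y axis), by extract (x axis) with vehicle at the left and the doses 20, 100 and 500 µg/mL from light to dark; points are libraries, short lines are means of groups with 2 or 3 libraries, and the orange band is the range of the 3 vehicle libraries. SLC7A11 reached 232 to 266 CPM in Glycyrrhiza High, whereas GPX2 fell there to 302 to 328 CPM, below the vehicle band, and GSS lay below the vehicle band in all 57 treated libraries.

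GSR, which recycles oxidised glutathione (chromosome 8), had smaller log2 fold changes than GCLC and GCLM in Glycyrrhiza and Poria. It had 195, 201 and 213 CPM in Glycyrrhiza High, against 137, 130 and 135 CPM in Glycyrrhiza Low, a log2 fold change of 0.60 (SE 0.04, edgeR adjusted p = 1.76e-17). It also rose in Poria (0.39), Atractylodis (0.35), Ginseng (0.32) and SDT (0.18), and the PMT value was 0.14 with an adjusted p of 0.30. GSS, the second enzyme of synthesis (chr20:34928433-34956027, minus strand), did not follow GCLC and GCLM. Its libraries ran from 55.6 to 61.1 CPM in Glycyrrhiza High, against 51.3 to 53.0 CPM in Glycyrrhiza Low, a log2 fold change of 0.18 (SE 0.05, adjusted p = 0.00153), and from 46.8 to 49.2 CPM in Poria High, against 51.3 to 55.3 CPM in Poria Low, a log2 fold change of -0.13 (adjusted p = 0.045). The Poria call ended without Poria Low replicate 3 (-0.09) and without Poria High replicate 1 (-0.11), 2 (-0.14) or 3 (-0.13), and with DESeq2 (-0.12), although High and Low libraries did not overlap. GGT1 (chr22:24583750-24629005, plus strand) was lower at High in the same herbs, with 35.2, 32.4 and 37.2 CPM in Glycyrrhiza High, against 38.8, 37.5 and 41.9 CPM in Glycyrrhiza Low (log2 fold change -0.18, adjusted p = 0.00671). In Poria its log2 fold change was -0.16 (adjusted p = 0.028). These GGT1 calls were also thin: the Glycyrrhiza one ended without High replicate 2 (-0.12) or Low replicate 3 (-0.13), and the Poria one without High replicate 1 or 3 (both -0.15) or without Low replicate 2 (-0.13) or 3 (-0.15). GGT1 overlaps SNRPD3 on its own strand and LRRC75B on the other, and its expected counts were not whole in 35 of 60 libraries, so its level is uncertain. SNRPD3 stood at 66.4 to 122 CPM, against 32.4 to 49.6 CPM for GGT1. At High against Low the log2 fold change of SNRPD3 was -0.60 in Glycyrrhiza and 0.09 in Poria. For LRRC75B these values were 0.69 and -0.16. Whether reads shared with either gene contributed to the GGT1 fold changes was not tested.

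The peroxidases did not move as a group. GPX2 (chr14:64939152-64942905, minus strand), the most abundant of the 9, had 647, 584 and 585 CPM in Poria High, against 417, 389 and 450 CPM in Poria Low, a log2 fold change of 0.53 (SE 0.05, edgeR adjusted p = 4.47e-11). It rose by similar amounts at High in Atractylodis (0.50), Ginseng (0.47), PMT (0.39) and SDT (0.39), which makes it, with GCLM, a gene that passed the test at High in every replicated extract. Glycyrrhiza was the exception in direction. GPX2 had 327, 302 and 328 CPM in Glycyrrhiza High, against 464, 480 and 489 CPM in Glycyrrhiza Low, a log2 fold change of -0.58 (SE 0.05, adjusted p = 7.98e-13), although at Glycyrrhiza Medium it had 567, 541 and 589 CPM and was above Low (log2 fold change 0.24, adjusted p = 0.0033). The Glycyrrhiza dose course of GPX2 therefore rose and then fell, with every High library below every vehicle library (425, 390 and 396 CPM). GPX2 overlaps CHURC1 on the other strand, which reached at most 23.0 CPM.

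GPX1 (chr3:49357171-49358600, minus strand, a polymorphic pseudogene by its GENCODE type) passed the High against Low test in Poria and in no other extract: 103, 103 and 105 CPM in Poria High, against 118, 117 and 150 CPM in Poria Low, a log2 fold change of -0.31 (edgeR adjusted p = 0.00185). The third Low library stood apart, and without it the log2 fold change was -0.18 and the call ended. Elsewhere its High against Low values lay between -0.01 and 0.10. The expected counts of GPX1 were not whole in 16 of 60 libraries. GPX4 passed the test in none of the 6 High against Low comparisons, with log2 fold changes from -0.03 to 0.08, 0 passing in DESeq2 and 0 at an unadjusted p under 0.05 in edgeR, and its group means stayed between 218 and 249 CPM in all replicated groups. The 95% intervals of its dose response were -0.10 to 0.17 in Glycyrrhiza and -0.13 to 0.14 in Poria.

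Counted by extract, members that passed the test at High against Low (higher, then lower) were 5 and 2 of 9 in Glycyrrhiza, where 56.3% of all tested genes passed, and 5 and 3 in Poria, where 38.5% passed. They were 5 and 0 in Atractylodis (6.42% of all genes), 5 and 0 in Ginseng (5.66%), 5 and 0 in SDT (1.06%) and 2 and 0 in PMT (0.516%). The 5 that rose in Atractylodis, Ginseng and SDT were SLC7A11, GCLC, GCLM, GSR and GPX2. In Poria the same 5 rose, and in Glycyrrhiza GSS stood in the place of GPX2. The median log2 fold change of the 9 was 0.18 in Glycyrrhiza, 0.39 in Poria, 0.35 in Atractylodis, 0.32 in Ginseng, 0.15 in SDT and 0.14 in PMT, beside medians over all tested genes between -0.00 and 0.01. In SDT, GCLM and GPX2 kept their calls in all 14 alternatives run, and the other 3 did not. GCLC lost its call without any 1 of the 6 SDT High and Low libraries (0.13 to 0.17), SLC7A11 without SDT High replicate 1 or 2 or any SDT Low library (0.29 to 0.32), and GSR without SDT High replicate 1 (0.16) or SDT Low replicate 2 (0.17). In PMT, GCLM lost its call without PMT High replicate 2 (0.36) or PMT Low replicate 3 (0.41).

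**Figure D2:**
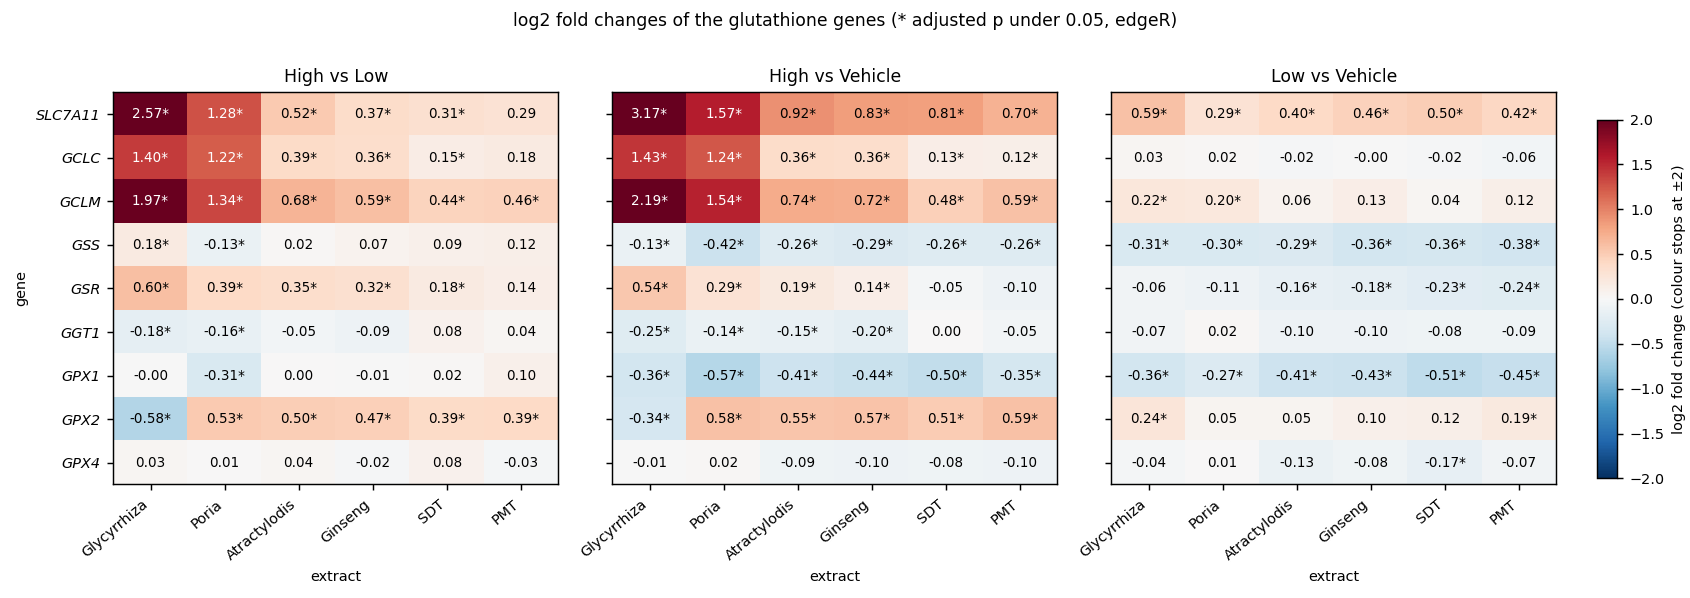
Log2 fold changes of the 9 genes (rows) in the 6 replicated extracts (columns) for High against Low, High against vehicle and Low against vehicle; red is higher and blue lower in the first-named group, the colour stops at 2 in either direction, and a star marks an edgeR adjusted p under 0.05. SLC7A11 is red in every column, GSS and GPX1 are blue in every column of both comparisons with vehicle, and GPX2 in Glycyrrhiza is blue for High against Low (-0.58) and for High against vehicle (-0.34).

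At Medium against Low, members passed the test in Poria and Glycyrrhiza. In Poria, 4 members rose and 0 fell (15.5% of all genes passed): SLC7A11 by 0.85, GCLM by 0.53, GCLC by 0.45 and GSR by 0.18 on the log2 scale. The GSR call ended with no scaling (0.10) and with only the groups compared (0.18). In Glycyrrhiza, 5 rose and 1 fell (3.5% of all genes): GCLM by 0.61, SLC7A11 by 0.44, GCLC by 0.36, GSR by 0.32 and GPX2 by 0.24, while GGT1 fell by 0.21. The GGT1 call ended without Glycyrrhiza Medium replicate 1 (-0.19) or 3 (-0.21) or Glycyrrhiza Low replicate 3 (-0.16). In SDT (0.00614% of all genes), PMT (0%), Atractylodis (0%) and Ginseng (0%) no member passed edgeR's test, and none passed DESeq2's. At an unadjusted p under 0.05, edgeR gave 3 members in SDT, 1 in PMT, 2 in Atractylodis and 2 in Ginseng, GCLM among them in each.

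**Figure D3:**
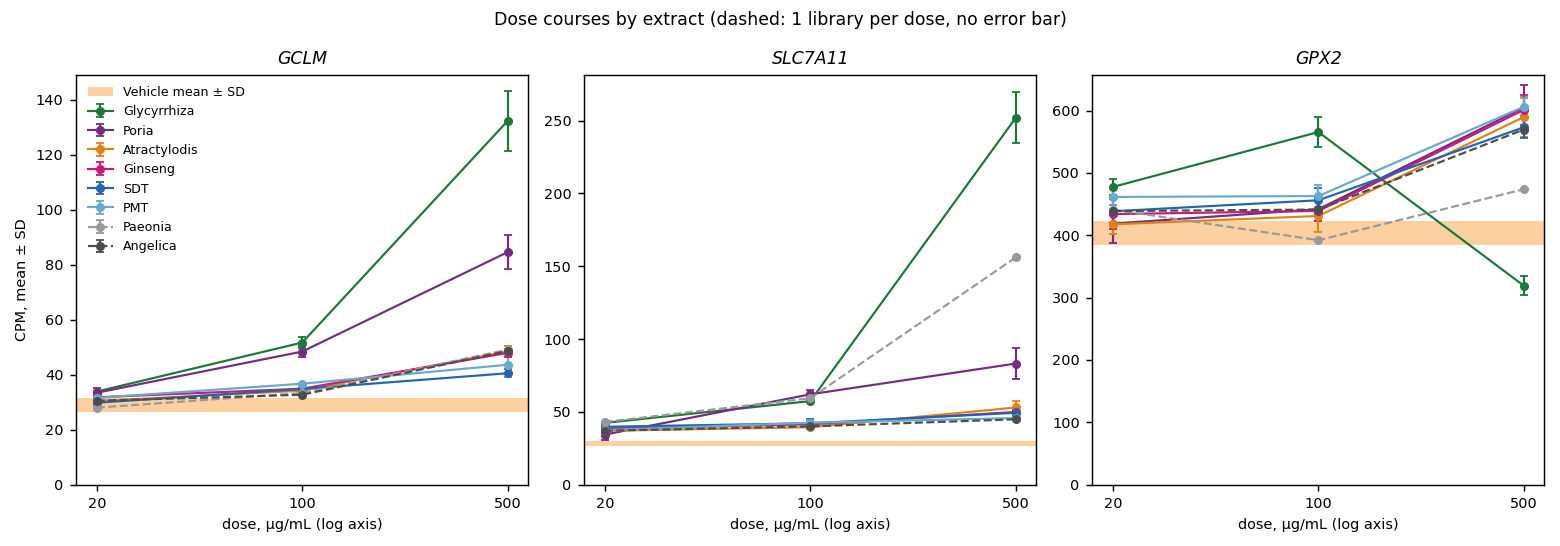
Mean CPM of GCLM, SLC7A11 and GPX2 (y axes, from 0) at 20, 100 and 500 µg/mL (x axis, log scale) for the 8 extracts; bars are SD over 3 libraries (2 for PMT), dashed lines join extracts with 1 library per dose, and the orange band is the vehicle mean ± SD (n = 3). GCLM and SLC7A11 climb steeply between 100 and 500 µg/mL with Glycyrrhiza, and GPX2 is at 319 ± 15.0 CPM in Glycyrrhiza High, below all other High groups.

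The dose responses themselves were compared between extracts as differences of High against Low. Glycyrrhiza and Poria carry different set codes (10 and 9), as do Atractylodis and Ginseng (9 and 10). In those comparisons a dose response that depends on the set cannot be told apart from one that depends on the herb. Poria and Atractylodis share a set code, as do SDT and PMT. Glycyrrhiza exceeded Poria (45.6% of all genes passed, 7 members) in SLC7A11 by 1.30 on the log2 scale (SE 0.10, edgeR adjusted p = 1.39e-14), in GCLM by 0.63, in GSS by 0.31, in GPX1 by 0.30, in GSR by 0.21 and in GCLC by 0.18, and was below it in GPX2, where the difference was -1.11 (SE 0.08, adjusted p = 1.83e-16). SLC7A11 and GPX2 thus separated the herbs most, in opposite directions, and GCLC least among the genes that passed. Poria exceeded Atractylodis (19% of all genes passed, 4 members) in GCLC by 0.83, SLC7A11 by 0.76 and GCLM by 0.66, whereas for GPX1 the difference was -0.31 (adjusted p = 0.0477). The GPX1 differences were the least firm: that between Glycyrrhiza and Poria lost its call without Poria Low replicate 3 (0.17) or Glycyrrhiza High replicate 3 (0.22), and that between Poria and Atractylodis without Poria Low replicate 3 (-0.18), any Poria High library (-0.30 to -0.32), Atractylodis High replicate 1 (-0.27) or 3 (-0.31), or Atractylodis Low replicate 1 (-0.27) or 2 (-0.32). GPX2 did not pass between those herbs, with a difference of 0.03 and a 95% interval of -0.12 to 0.19. Between Atractylodis and Ginseng (0.00614% of all genes) and between SDT and PMT (0%) no member passed in edgeR or DESeq2, also at an unadjusted p under 0.05. The intervals allow SLC7A11 differences of -0.07 to 0.36 between Atractylodis and Ginseng, and of -0.22 to 0.27 between SDT and PMT.

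**Figure D4:**
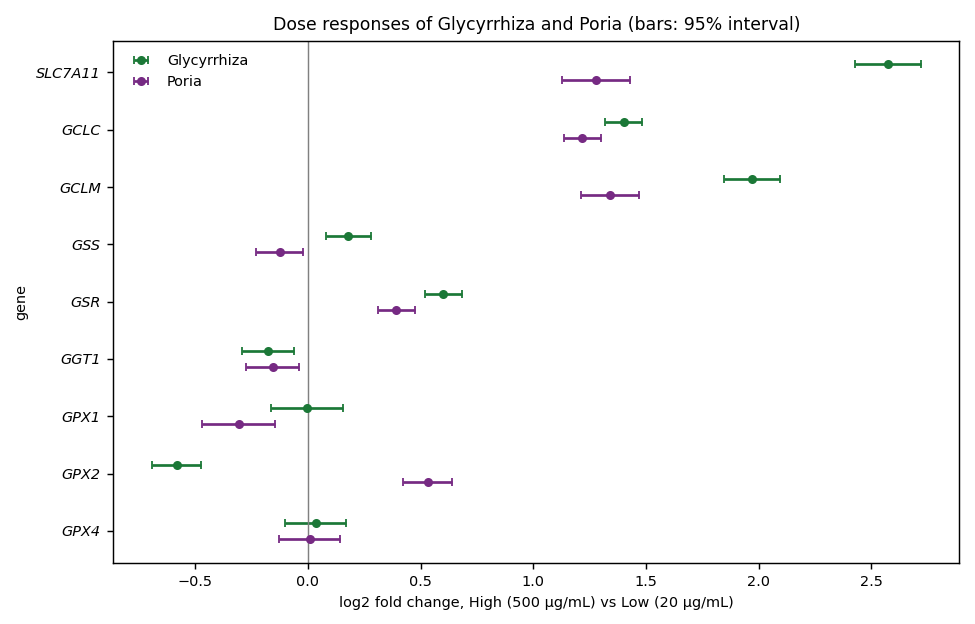
Log2 fold change of High (500 µg/mL) against Low (20 µg/mL) on the x axis for each gene (y axis), with 95% intervals, in Glycyrrhiza (green, upper point of each pair) and Poria (purple, lower point). The intervals are apart for SLC7A11 (2.57 and 1.28), GCLM (1.97 and 1.34), GCLC (1.40 and 1.22) and GSR (0.60 and 0.39). They lie on opposite sides of 0 for GPX2 (-0.58 and 0.53) and GSS (0.18 and -0.13). They overlap for GGT1, GPX1 and GPX4, almost fully for GPX4.

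Against vehicle, 3 genes stood off at every dose. SLC7A11 was above all 3 vehicle libraries in all 57 treated libraries (31.1 to 266 CPM, against 26.1 to 29.9 CPM in vehicle) and passed the test as higher in all 18 comparisons of a replicated extract and dose with vehicle. GSS was below all vehicle libraries in all 57 (46.8 to 61.1 CPM, against 61.8 to 66.7 CPM in vehicle) and was called lower in all 18, with log2 fold changes of -0.13 to -0.42. The smallest, in Glycyrrhiza High, was no longer called without vehicle replicate 1 (-0.11) or 2 (-0.12) or Glycyrrhiza High replicate 2 (-0.08), and the PMT High one (-0.26) was not called without PMT High replicate 2 (-0.16). GPX1 was below all vehicle libraries in 56 of 57 (91.5 to 150 CPM, against 146 to 162 CPM in vehicle) and was called lower in all 18, with log2 fold changes of -0.27 to -0.57. These comparisons share the same 3 vehicle libraries, and the set code of vehicle differs from that of every extract. How many of all tested genes stood off from vehicle in the same way was not counted. The pattern is therefore not shown to be particular to these 3 genes. In single comparisons with vehicle, 19.2% (Poria Low) to 61.3% (Glycyrrhiza High) of all genes passed. In Low against vehicle, members called numbered 5 in SDT (35.8% of all genes), 5 in PMT (31%), 4 in Poria (19.2%), 4 in Atractylodis (26.8%), 5 in Glycyrrhiza (29.9%) and 4 in Ginseng (33.5%). In Poria Low the count fell to 1 of 9 on leaving out some single libraries: the calls of SLC7A11 (0.29), GCLM (0.20) and GPX1 (-0.27) ended without vehicle replicate 2 (0.24, 0.14 and -0.23) or without Poria Low replicate 2 (0.20, 0.17 and -0.20), and that of GPX1 also without Poria Low replicate 1 (-0.20). GSS kept its call there. GSR was below vehicle at Low in SDT (-0.23), PMT (-0.24), Ginseng (-0.18) and Atractylodis (-0.16), and GPX4 was called in SDT Low (-0.17), a call that ended without vehicle replicate 1 (-0.14) or 2 (-0.16) and without SDT Low replicate 1 (-0.18) or 3 (-0.12).

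At High against vehicle, members called were 8 in Glycyrrhiza (61.3% of all genes passed), 8 in Poria (51.3%), 8 in Atractylodis (33.9%), 8 in Ginseng (36.3%), 6 in SDT (34.3%) and 6 in PMT (29.3%). Among these, GGT1 in Poria (-0.14) lost its call with DESeq2 and without vehicle replicate 1 (-0.14) or 2 (-0.11) or Poria High replicate 1 (-0.12), 2 (-0.14) or 3 (-0.12). GGT1 in Atractylodis (-0.15) lost it without vehicle replicate 1 (-0.15) or 2 (-0.12) or Atractylodis High replicate 2 (-0.10) or 3 (-0.16), and GGT1 in Ginseng (-0.20) without Ginseng High replicate 3 (-0.14). GCLC in PMT (0.12) lost it without vehicle replicate 1 or 2 (both 0.12) or PMT High replicate 2 (0.12) or 3 (0.14), and GCLC in SDT (0.13) without SDT High replicate 2 (0.12). GSR lost its call with no scaling in Poria (0.06), Atractylodis (0.09) and Ginseng (0.05). SLC7A11 was higher by 3.17 on the log2 scale in Glycyrrhiza, 1.57 in Poria, 0.92 in Atractylodis, 0.83 in Ginseng, 0.81 in SDT and 0.70 in PMT. GCLM was higher by 2.19 in Glycyrrhiza and 1.54 in Poria, and by 0.48 to 0.74 in the other 4. At Medium against vehicle, members called were 8 in Glycyrrhiza (34.8%), 5 in Poria (38.7%), 6 in SDT (35.9%), 6 in PMT (29.7%), 4 in Atractylodis (28.2%) and 4 in Ginseng (29.7%), with GCLM and SLC7A11 higher in each. Leaving out 1 library gave 4 to 6 in SDT and 3 to 4 in Atractylodis. In SDT, GSR (-0.14) and GPX2 (0.18) lost their calls without SDT Medium replicate 2 (-0.10 and 0.14). GCLM in Atractylodis (0.24) lost its call without vehicle replicate 2 (0.16). In PMT, GSR (-0.15) and GPX2 (0.20) were at -0.11 and 0.17 without PMT Medium replicate 2.

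Angelica and Paeonia had 1 library per dose, so their values have no test, and a gene is counted where its log2 ratio to the vehicle mean passes 1.5-fold. Paeonia High had 156 CPM of SLC7A11, a log2 ratio of 2.47, which is above every library of the other extracts except the Glycyrrhiza High ones. It had 132 CPM of GCLC (0.88) and 49.1 CPM of GCLM (0.76). SLC7A11, GCLC and GCLM, the 3 members past 1.5-fold, compare with 20.8% of all genes. GSR at 134 CPM (-0.06) lay below the vehicle range, and it stood at 113 CPM in Paeonia Low and 125 CPM in Paeonia Medium. The gap between GCLC and GCLM was within the vehicle SD of GCLM, 0.13 on the log2 scale. Paeonia Medium passed for SLC7A11 alone (59.3 CPM, 1.08), beside 9.3% of all genes, and Paeonia Low for SLC7A11 (0.62) and GPX1 (-0.62), beside 13.5%. Neither of the Paeonia Low values passed without vehicle replicate 2. Angelica High passed for GCLM (48.6 CPM, 0.74) and SLC7A11 (44.8 CPM, 0.67), beside 11.6% of all genes, and no member passed at Angelica Medium (9.43%) or Low (7.87%).

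The wider pathway was described by 3 lists, whose shares read beside the 56.3% of all genes called in Glycyrrhiza and the 38.5% called in Poria. The lists were chosen with earlier results of these data known, so their shares are a description and not a test. Of 27 listed genes around glutathione, 25 were tested, and 13 rose and 9 fell at High against Low in Glycyrrhiza (median 0.25). CTH, which makes cysteine from cystathionine, rose by 2.19, CBS, the step before it, by 1.05, and SLC3A2, the heavy chain that carries SLC7A11 to the membrane, by 1.18, whereas DPEP1, a dipeptidase that acts on cysteinylglycine, fell by 1.09. In Poria 7 rose and 8 fell (median 0.03), led by DPEP1 (-1.23), the glutaredoxin GLRX (1.15), GGT6 (-0.92) and the glutathione conjugate exporter ABCC1 (0.73). CTH and SLC3A2 did not pass in Poria (-0.03 and 0.03), nor did CBS (0.15), and the differences between the herbs were 2.21 for CTH, 1.15 for SLC3A2 and 0.90 for CBS, all past the edgeR threshold. At High against vehicle SLC3A2 was called higher in Glycyrrhiza (0.79) and lower in Poria (-0.36), Ginseng (-0.37), Atractylodis (-0.38), SDT (-0.42) and PMT (-0.46). Its partner SLC7A11 was higher in all 6. Set and treatment cannot be told apart in these comparisons with vehicle. Within SDT, SLC3A2 was not called at High against Low (0.15). In the single Low libraries its log2 ratio to the vehicle mean was already -0.37 in Angelica and -0.68 in Paeonia.

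Of 18 genes of NRF2 and its targets outside glutathione, 17 were tested. At High against Low 15 rose and 0 fell in Glycyrrhiza (median 0.81), with SRXN1, which restores peroxiredoxins, at 1.95, OSGIN1 at 1.90, the thioredoxin reductase TXNRD1 at 1.57 and the quinone reductase NQO1 at 1.25. In Poria 14 rose and 1 fell (median 0.38), with SRXN1 at 1.28, the exporter ABCC2 at 1.09, NQO1 at 1.00 and TXNRD1 at 0.97. The other extracts had 9 higher and 0 lower in Atractylodis (6.42% of all genes called), 10 and 0 in Ginseng (5.66%), 6 and 1 in SDT (1.06%) and 1 and 0 in PMT (0.516%). Of 13 genes of ATF4 and its targets, all 13 rose in Glycyrrhiza (median 1.37): DDIT3, the stress factor CHOP, by 2.46, asparagine synthetase ASNS by 2.44, the lipoprotein receptor VLDLR by 2.26 and the transcription factor ATF3 by 1.96. In Poria 6 rose and 4 fell (median 0.20), with ATF3 at 0.68, STC2 at 0.53, VLDLR at 0.49 and PHGDH, of serine synthesis, at -0.37. All 13 genes of this list differed between Glycyrrhiza and Poria in dose response, higher in Glycyrrhiza, where 45.6% of all genes passed in either direction. Of the 17 NRF2 genes, 10 were higher and 1 lower. In the single Paeonia High library 8 of 13 ATF4 genes and 0 of 17 NRF2 genes were more than 1.5-fold above the vehicle mean. Their median log2 ratios were 0.79 and 0.24, and 20.8% of all genes were past that fold in either direction. SLC3A2 stood at -0.13 there. The NRF2 list leaves out the 9 glutathione genes, of which SLC7A11 (2.47), GCLC (0.88) and GCLM (0.76) were past that fold in this library. The lists were not tested against each other.

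**Figure D5:**
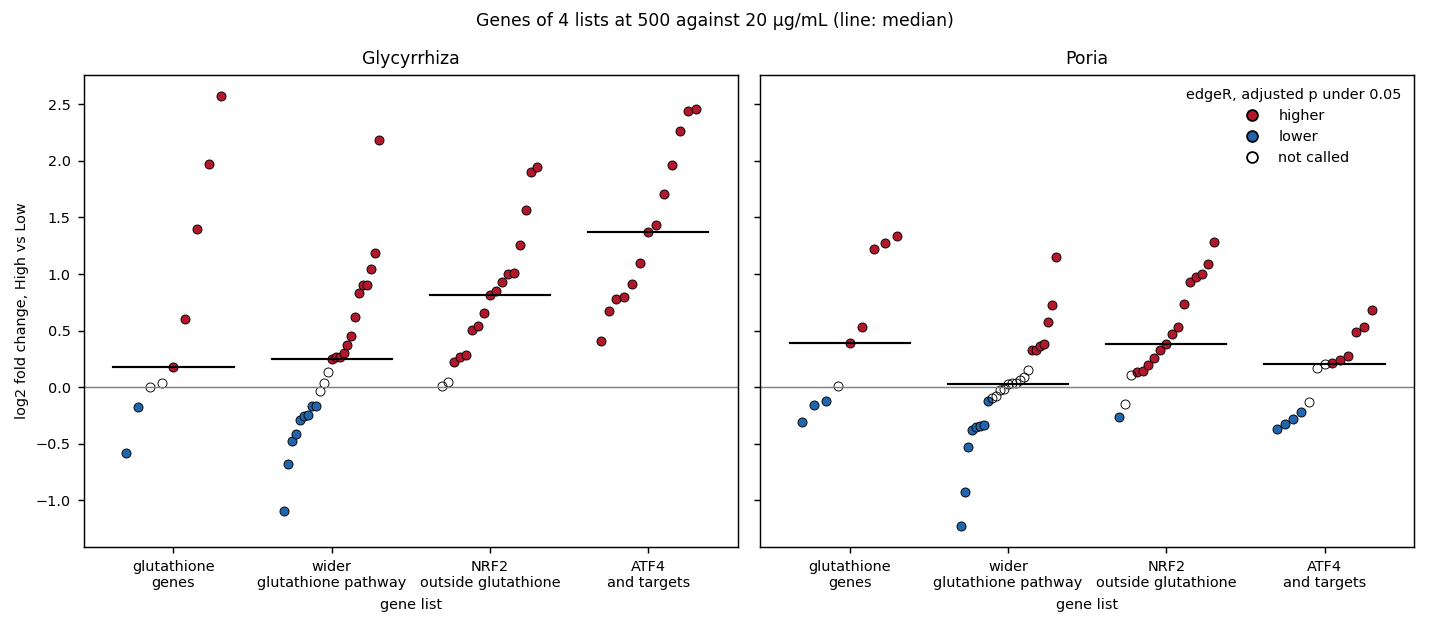
Log2 fold change of High against Low (y axis) for the 9 glutathione genes and 3 further lists (x axis) in Glycyrrhiza and Poria; each point is a gene, red if called higher, blue if called lower and open if not called (edgeR, adjusted p under 0.05), and the line is the list's median. The ATF4 list lies wholly above 0 in Glycyrrhiza (median 1.37) and has genes on both sides of 0 in Poria (median 0.20), while the NRF2 list is mostly above 0 in both.

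Over the means of the 19 replicated groups, SLC7A11, GCLC, GCLM and GSR had pairwise Pearson correlations between 0.84 (SLC7A11 and GSR) and 0.98 (GCLC and GCLM). Their calls against vehicle differed all the same, with SLC7A11 higher in 18 of 18 comparisons and GSR higher in 5 and lower in 6. GPX2 had -0.01 with GCLC, 0.03 with GCLM and -0.17 with SLC7A11, and GSS had 0.76 with GPX1. The tested genes most like SLC7A11 were HSPA13, CCPG1 and MEPCE (0.98 each), and those most like GCLM were TXN (0.98), LUCAT1 (0.98) and ENSG00000231683 (0.97). GPX2 was most like PA2G4 (0.93), LYAR (0.90) and UFD1 (0.90), and GGT1 was matched less closely, by GSAP (0.79), PAQR7 and RAPGEF4 (both 0.77). These are descriptions over 19 points that share a table and its scaling, and a few extreme groups weigh heavily in them. Mean SLC7A11 was 252 CPM in Glycyrrhiza High, against 83.1 CPM in Poria High, the next highest of the 19. Mean GCLC was 194 CPM in Glycyrrhiza High and 169 CPM in Poria High, followed by 99.3 CPM in Poria Medium. Vehicle had the highest mean of the 19 for both GSS and GPX1.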

How the data were processed

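RNA from HepG2 cultures was sequenced with a directional kit, per the labels' protocols. The authors deposited expected counts per gene, a unit read from values that were partly not whole. STAR 2.7.3a, RSEM 1.3.3 and GRCh38 are named, without roles, per the submitters' processing notes. The annotation release, the strand setting and the treatment of shared reads are not given in the sources used here. Of 270 columns, 210 belong to no sample used here and were left out. Expected counts were rounded to whole numbers. A single edgeR 4.0.16 quasi-likelihood model (R 4.3.3, filterByExpr, TMM scaling) was fitted to the 54 libraries of 19 groups, 16286 genes were tested, and p-values were adjusted by Benjamini-Hochberg over all of them at 0.05. Intervals are 95% with 35 residual degrees of freedom. Angelica and Paeonia were set against the vehicle mean with a prior count of 2. The script was tested on simulated data. Alternatives were DESeq2 1.42.0, RLE scaling, no scaling, no filter, only the groups compared, library sizes without mitochondrial genes, a replicate block and leaving out each library. Genes were placed by GENCODE 29, and promoter sequence is from RefSeq, GRCh38.p14. In each wider list, the 4 genes with the largest called change per herb were named, and further genes were chosen after their values were seen. The members and the lists were chosen with earlier results of these data known.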

Additional observations from a re-analysis of the deposited data

Results flagged for a closer look

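The dose response, High against Low, differed between extracts for 7 of the 9 genes between Glycyrrhiza and Poria, by a test of the difference itself in edgeR with adjustment over all genes. Glycyrrhiza and Poria carry different set codes, so set and herb cannot be told apart there. SLC7A11 differed by 1.30 on the log2 scale (SE 0.10, adjusted p = 1.39e-14) and GPX2 by -1.11 (SE 0.08, adjusted p = 1.83e-16), the widest gaps in either direction. GCLM differed by 0.63 (adjusted p = 6.41e-08), GSS by 0.31 (adjusted p = 0.000352), GPX1 by 0.30 (adjusted p = 0.024), GSR by 0.21 (adjusted p = 0.00215) and GCLC by 0.18 (adjusted p = 0.00695). Between Poria and Atractylodis 4 genes differed: GCLC by 0.83 (adjusted p = 4.44e-15), SLC7A11 by 0.76 (adjusted p = 2.93e-07), GCLM by 0.66 (adjusted p = 2.03e-07) and GPX1 by -0.31 (adjusted p = 0.0477). Both GPX1 differences lost their call without Poria Low replicate 3, at 0.17 and -0.18.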

How the results depend on the processing

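Taking mitochondrial genes out of the library sizes changed 0 of 306 gene calls. DESeq2 and RLE scaling each left 303 of 306 on the same side of the threshold, no filter 292, only the groups compared 291 and no scaling 264. Leaving out 1 library left 1887 of 1971 there and reversed none. Members called at High against Low in SDT were 5, but 2 with no scaling, 3 with no filter, 3 with only the groups compared and 2 to 4 when leaving out 1 library. When leaving out 1 library, they ranged from 1 to 2 in PMT and from 5 to 8 in Poria. In Poria Low against vehicle they ranged from 1 to 5, with 1 for only the groups compared. Paeonia Low ranged from 0 to 2. With no filter on low counts, SLC7A11 in PMT High against Low became called (0.30). With no scaling, 3 values against vehicle reversed: GCLC in SDT High (-0.012) and PMT High (-0.040), and GPX4 in Poria High (-0.20). That setting moved the median of all genes by up to -0.22. GSR in Poria Medium against Low lost its call with no scaling and with only the groups compared. Apart from these constructions, the cause was not tested. Replicate numbers were not treated as pairs, since no comparison had every same-numbered correlation over 0.1. Those correlations ran from -0.149 (Glycyrrhiza High against vehicle) to 0.137 (Atractylodis High against Low). Such a rule cannot show that pairing was absent. With the replicate block 304 of 306 calls stayed, and GPX1 in the difference between Poria and Atractylodis was -0.31 and no longer called, while GPX2 in Poria Medium against vehicle became called (0.13). A block of set code and replicate number together, chosen after seeing the data, left 143 of 144. Over all genes, that block raised the number called at High against Low in every replicated extract. It went from 173 to 241 in SDT, from 1046 to 1259 in Atractylodis and from 9167 to 9292 in Glycyrrhiza. The depth of 19057280 or more counts did not limit these genes, each with at least 563 counts per library.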
